A study of Ovis aries and Bos taurus with 15 samples.

Results

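Chemokine genes were followed in endothelial cells on Affymetrix arrays that carry bovine probes. The list held CXCL2, CXCL3, CXCL5, CXCL6, CXCL8, GRO1, CCL2, CCL5, CCL8 and CX3CL1, and every probe set whose platform annotation gave exactly 1 gene symbol from it was taken. This gave 12 of 24016 probe sets tested, for 8 of the 10 genes: GRO1 had 4 probe sets, CCL2 had 2, and CXCL2, CXCL3, CXCL5, CXCL8, CCL5 and CCL8 had 1 each. CXCL6 and CX3CL1 were not analysed here. The 15 arrays formed 3 groups of 5. Ovine cells labelled PAEC, pulmonary endothelial cells by the study's title, received 5 µM GW9662 for 24 h. Bovine cells labelled BAEC and named controls formed another group, with no treatment described for them. Ovine PAEC given the DMSO vehicle for 24 h were the comparison group for both. All cells grew in DMEM with fetal serum. The labels name no animals or clones and do not say whether replicates were separate cultures, so p-values measure the spread between these arrays, which may be technical.

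Chemokines are small secreted proteins that guide leukocytes through G protein-coupled receptors, and they are grouped by the spacing of their first cysteines. In human cells the CXC chemokines that carry a glutamate-leucine-arginine motif before those cysteines, among them CXCL8, CXCL5, CXCL2 and the GRO proteins, act on CXCR2 and draw neutrophils, whereas the CC chemokines CCL2, CCL5 and CCL8 act mainly on monocytes and lymphocytes. Endothelial cells transcribe many of these genes when NF-κB is activated by interleukin 1, tumour necrosis factor or endotoxin, and display the proteins on heparan sulfate at the vessel wall. GW9662 binds PPARγ covalently and blocks it. PPARγ is a nuclear receptor whose ligands dampen inflammatory transcription in several cell types.

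Values are the deposited log2 expression values made with RMA, in which 1 unit is a doubling of signal. On each array 44.5% to 46.8% of probe sets read under 3, the low end of the scale, where weak expression and none look alike. Ovine vehicle replicate 1 lay farthest from the other arrays of its group, with a root mean square distance of 0.28 log2 units, against 0.13 to 0.18 for the other 14 arrays. Endothelial markers were high in all groups, with a mean over 14 markers of 8.15 to 8.35 on GW9662 arrays, 8.64 to 8.77 on bovine arrays and 8.19 to 8.31 on ovine vehicle arrays. VWF averaged under 3 in every group, CLDN5 in both ovine groups and KDR in ovine vehicle cells. Leukocytes are a source of chemokine RNA in tissue. Of 9 leukocyte markers 8 averaged under 3 in every group, PTPRC among them. The exception was the endotoxin co-receptor CD14, whose brightest probe set averaged 6.72 with GW9662, 2.27 in bovine controls and 6.69 with vehicle. The other CD14 probe set averaged 2.22 with GW9662, 2.04 in bovine controls and 2.17 with vehicle. The ovine CD14 signal thus rests on 1 probe set. Of 12 smooth muscle and fibroblast markers 9, and of 9 epithelial and mesothelial markers 8, averaged under 3 in every group. The exceptions were TAGLN, COL1A2, COL3A1 and KRT5. TAGLN, a smooth muscle actin-binding protein, averaged 7.16 with GW9662, 9.001 in bovine controls and 7.18 with vehicle. In the same order of groups, the fibrillar collagens averaged 10.36, 11.24 and 10.33 (COL1A2) and 10.55, 10.41 and 10.44 (COL3A1). The keratin KRT5 averaged 4.97, 5.01 and 4.99 on its brightest probe set. Its other probe set averaged 1.98, 1.97 and 1.99.

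The neutrophil-directed CXC chemokines separated the bovine from the ovine cells. CXCL8, CXCL5, CXCL2 and all 4 GRO1 probe sets were lower in bovine controls than in ovine vehicle cells with log2 differences of -1.27 to -6.74. CCL2 went the other way on 1 of its probe sets, and CXCL3, CCL5 and CCL8 did not pass the test. With GW9662, none of the 12 probe sets passed.

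**Figure D1:**
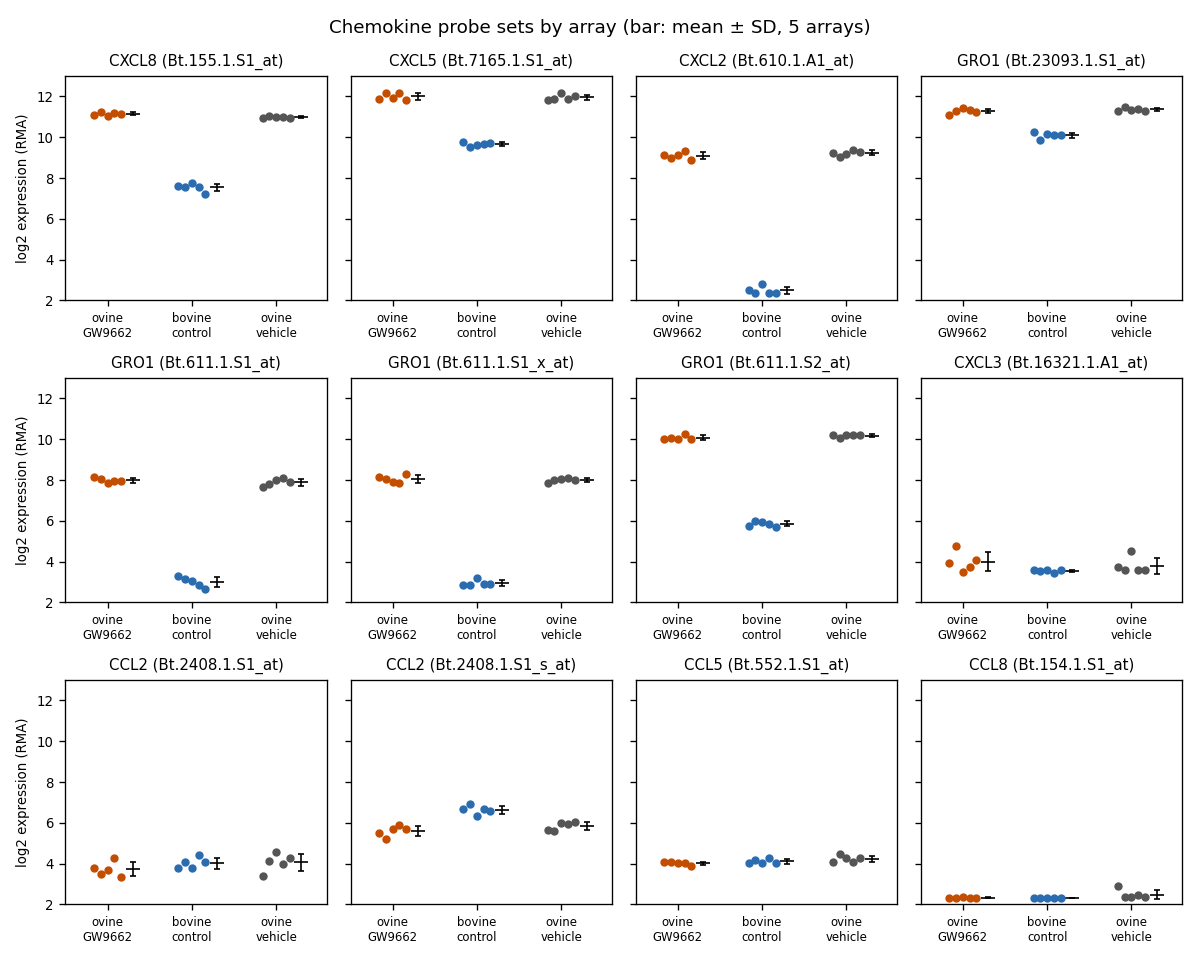
Log2 expression (vertical axis) of the 12 chemokine probe sets on each of 5 arrays per group, with GW9662 and bovine controls left of ovine vehicle. Points are arrays and the bar beside them is the mean ± SD. The bovine points lie below both ovine groups for CXCL8, CXCL5, CXCL2 and GRO1 and above them for CCL2 on probe set Bt.2408.1.S1_s_at.

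CXCL8 (probe set Bt.155.1.S1_at), interleukin 8, attracts and activates neutrophils. It read 11.11, 11.25, 11.05, 11.17 and 11.13 on the GW9662 arrays. In bovine controls it read 7.60, 7.57, 7.75, 7.54 and 7.23, against 10.96, 11.06, 11.001, 11.01 and 10.92 in ovine vehicle cells. Every bovine array lay at least 3 units under every ovine array, and the GW9662 and vehicle arrays overlapped by a narrow margin. The bovine mean of 7.54 ± 0.19 was lower than the ovine vehicle mean of 10.99 ± 0.052 (SD, n = 5 each) by a log2 difference of -3.45 (SE 0.084, limma adjusted p = 4.9e-09), a 10.96-fold lower signal.

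CXCL5 (Bt.7165.1.S1_at), another ligand of CXCR2, read 11.89, 12.16, 11.93, 12.17 and 11.83 with GW9662. It read 9.75, 9.54, 9.60, 9.68 and 9.71 in bovine controls and 11.80, 11.86, 12.15, 11.90 and 12.02 with vehicle. The 2 ovine groups overlapped and the bovine group lay below both. The bovine minus vehicle difference was -2.29 (SE 0.070, adjusted p = 2.2e-08), a 4.89-fold lower signal.

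CXCL2 (Bt.610.1.A1_at), a neutrophil attractant of the GRO group, read 9.15, 8.98, 9.13, 9.32 and 8.87 with GW9662. In bovine controls it read 2.53, 2.37, 2.80, 2.38 and 2.38, all at the low end of the scale, against 9.24, 9.04, 9.20, 9.38 and 9.30 with vehicle. Its bovine minus vehicle difference of -6.74 (SE 0.094, adjusted p = 1.7e-10) is a lower bound in signal, since the bovine mean of 2.49 ± 0.18 was under 3.

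GRO1 is the bovine symbol of a chemokine of the same group. Its probe set Bt.23093.1.S1_at read 11.11, 11.27, 11.41, 11.35 and 11.25 with GW9662. It read 10.24, 9.85, 10.15, 10.09 and 10.09 in bovine controls and 11.30, 11.48, 11.35, 11.40 and 11.27 with vehicle, a difference of -1.27 (SE 0.072, adjusted p = 1.4e-06). The bovine arrays again lay below all ovine arrays. The other GRO1 probe sets gave much larger differences. Bt.611.1.S2_at averaged 10.07 ± 0.11 with GW9662, and 5.85 ± 0.12 in bovine controls against 10.17 ± 0.059 with vehicle (difference -4.32, 95% confidence interval -4.45 to -4.20). Bt.611.1.S1_at and Bt.611.1.S1_x_at averaged 3.01 and 2.93 in bovine controls against 7.89 and 7.998 with vehicle, with differences of -4.88 and -5.06, while their GW9662 means were 7.98 and 8.05. The bovine mean of Bt.611.1.S1_x_at was under 3 and that of Bt.611.1.S1_at next to it, so these differences are lower bounds in signal or close to it. The direction was shared by all 4 probe sets, but their sizes were not: the interval of Bt.23093.1.S1_at, -1.44 to -1.11, lay far from those of the other 3. GRO1, CXCL2 and CXCL3 belong to a family of closely similar genes, so a probe set may read more than 1 of them. The part of such shared reading in these differences was not tested.

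CXCL3 (Bt.16321.1.A1_at), the remaining GRO-type ligand, was dim and uneven in ovine cells. It ran between 3.48 and 4.75 with GW9662 (median 3.94), between 3.43 and 3.58 in bovine controls (median 3.57) and between 3.58 and 4.50 with vehicle (median 3.58). The bovine minus vehicle difference was -0.25 (95% confidence interval -0.64 to 0.13, adjusted p = 0.229), and -0.079 without ovine vehicle replicate 3.

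CCL2 (Bt.2408.1.S1_s_at), the monocyte attractant MCP-1, read 5.51, 5.20, 5.69, 5.90 and 5.68 with GW9662. It read 6.65, 6.94, 6.35, 6.68 and 6.55 in bovine controls, against 5.64, 5.61, 5.997, 5.96 and 6.03 with vehicle. The bovine arrays lay above all ovine arrays, opposite to the neutrophil chemokines. The bovine mean was higher by 0.79 (SE 0.12, adjusted p = 0.00119), a 1.73-fold higher signal. The other CCL2 probe set, Bt.2408.1.S1_at, was dim, at 4.02 ± 0.27 in bovine controls and 4.06 ± 0.43 with vehicle, and gave -0.04 (95% confidence interval -0.52 to 0.44, adjusted p = 0.876), so the 2 probe sets disagree.

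CCL5, known as RANTES, which attracts T cells and monocytes, and CCL8, a monocyte attractant, read low throughout. CCL5 averaged 4.01 ± 0.087 with GW9662, 4.11 ± 0.11 in bovine controls and 4.24 ± 0.16 with vehicle. CCL8 averaged 2.34 with GW9662, 2.32 in bovine controls and 2.48 with vehicle, and its highest vehicle value, 2.89, came from vehicle replicate 1. For the bovine comparison CCL5 gave -0.13 and CCL8 -0.16 (adjusted p = 0.217 and 0.182).

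In all, 8 of the 12 probe sets passed between bovine controls and ovine vehicle cells, 1 higher and 7 lower, where 45.2% of all probe sets passed, 15.6% higher and 29.6% lower. Passing the test was thus common on these arrays. With each array centred on its median the same counts of members passed, against 26.9% of all probe sets, 15.6% higher and 11.3% lower, and after a second quantile normalization against 28.3%, 13.4% higher and 14.9% lower. The sizes were set against the same background. A fall of at least 1 log2 unit past the threshold was found in 7 of the 12 members and in 2.4% of all probe sets, a fall of at least 2 in 6 members and 0.645% of all, and a fall of at least 4 in 4 members and 0.137% of all. Of those 4, 3 are probe sets of GRO1 and share a target. The median difference was -1.78 over the members and -0.03 over all probe sets. GRO1 entered these counts and this median with 4 probe sets and CCL2 with 2, so both genes weigh more in them than the others. Groups did not overlap in 10 members, 1 higher and 9 lower, and in 53% of all probe sets, 12.5% higher and 40.5% lower. Without ovine vehicle replicate 1 the count of members that passed was 9, CCL8 being added at -0.06 (adjusted p = 0.0455). That call lies at the low end of the scale, since CCL8 averaged 2.32 in bovine controls and 2.48 over all vehicle arrays. Species, vessel and handling cannot be told apart in this comparison, and the ovine RNA was read with bovine probes. The mean 3′ minus 5′ signal of 6 control transcripts, used as a measure of RNA quality, was 0.843 to 0.942 on bovine arrays and 1.07 to 1.30 on ovine vehicle arrays, and its part in these differences was not tested. Of 12 smooth muscle and fibroblast markers 6 passed, 2 higher and 4 lower, where 49.2% of the brightest probe sets of all named genes passed. The 4 lower ones averaged under 3. TAGLN was higher in bovine controls by 1.83 (adjusted p = 5.8e-07) and COL1A2 by 0.91 (adjusted p = 4.1e-06), or 0.29 on its other probe set. COL3A1 gave -0.03 (adjusted p = 0.281), or -0.28 on its other probe set (adjusted p = 0.00296). The part of these markers was not tested either.

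**Figure D2:**
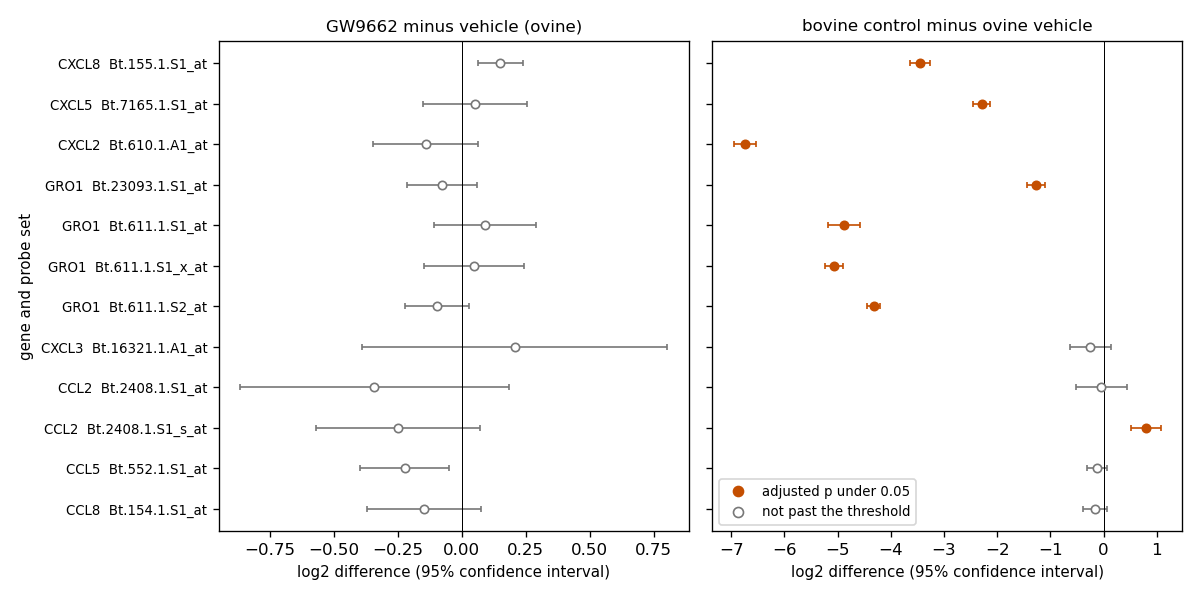
Log2 difference (horizontal axis) of each chemokine probe set with its 95% confidence interval, for GW9662 minus vehicle (left) and bovine control minus ovine vehicle (right). Filled points passed the adjusted threshold of 0.05. No point is filled on the left, where all intervals lie within 0.87 of zero, and 8 are filled on the right, between -6.74 and 0.79. The horizontal axes differ in scale.

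**Figure D3:**
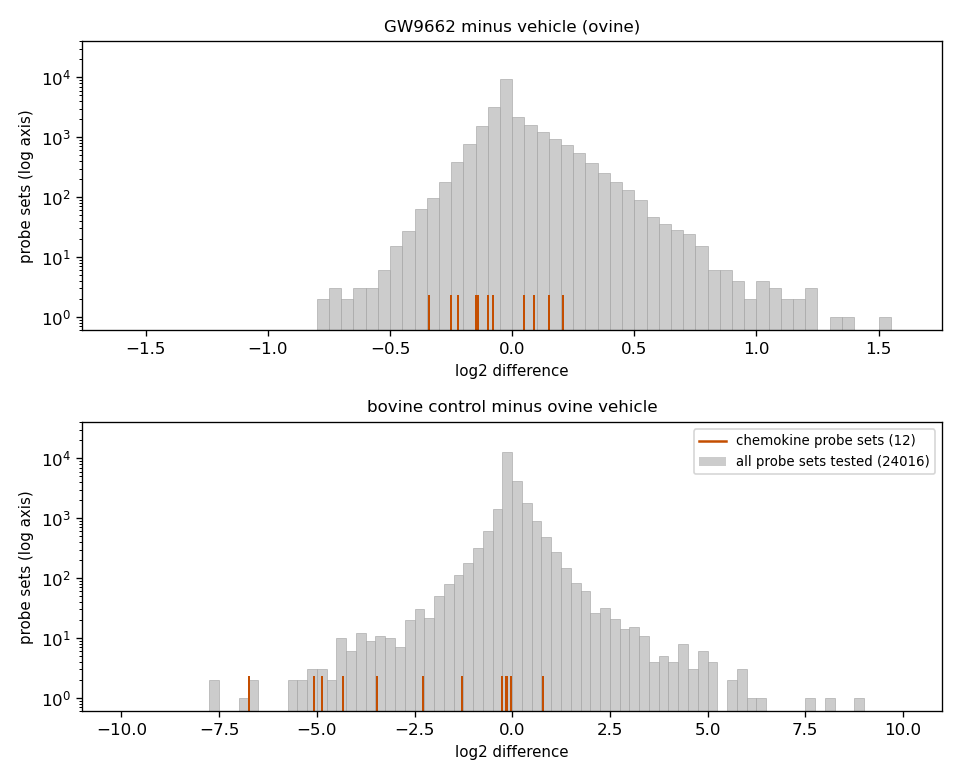
Distribution of the log2 differences (horizontal axis) of all 24016 probe sets, counted on a log axis (vertical), with orange marks at the 12 chemokine probe sets. Under GW9662 the marks lie between -0.34 and 0.21, and in the bovine comparison 4 of them lie below -4.

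PPARγ antagonism addresses whether receptor activity bears on chemokine expression in the ovine cells. None of the 12 probe sets passed with GW9662 (limma, smallest adjusted p = 0.190), where 0.183% of all probe sets passed. At an unadjusted p under 0.05 there were 2 members, CXCL8 higher and CCL5 lower, which is near the 21.4% found over all probe sets. Differences were positive for 5 members and negative for 7, with a median of -0.09, against -0.02 over all probe sets.

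For the bright CXC chemokines the intervals of the difference were narrow. CXCL8 averaged 11.14 ± 0.073 with GW9662 and 10.99 ± 0.052 with vehicle, a difference of 0.15 (95% confidence interval 0.06 to 0.24, adjusted p = 0.190). CXCL5 gave 0.05 (interval -0.15 to 0.25, adjusted p = 0.709) and CXCL2 -0.14 (interval -0.35 to 0.06, adjusted p = 0.323). The 4 GRO1 probe sets lay between -0.10 and 0.09, with adjusted p of 0.280 to 0.714. No interval of these 7 probe sets went beyond 0.35 in either direction.

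CCL2 (SE 0.14 and 0.23 on its 2 probe sets) and CXCL3 (SE 0.26) were measured with less precision. CCL5 (SE 0.077) was close in precision to CXCL2 (SE 0.091). CCL8 had a like SE (0.098), but its means of 2.34 with GW9662 and 2.48 with vehicle were under 3, where weak expression and none look alike. CCL2 gave -0.25 on Bt.2408.1.S1_s_at (interval -0.57 to 0.07, adjusted p = 0.283) and -0.34 on the dimmer Bt.2408.1.S1_at (interval -0.87 to 0.18, adjusted p = 0.343). CCL5 gave -0.22 (interval -0.40 to -0.05, adjusted p = 0.217). Its GW9662 arrays, 4.06, 4.06, 4.05, 4.04 and 3.86, all lay below its vehicle arrays, 4.09, 4.45, 4.28, 4.07 and 4.30. CXCL3 gave 0.21 (interval -0.39 to 0.80, adjusted p = 0.593), or 0.021 without GW9662 replicate 2 and 0.38 without vehicle replicate 3. CCL8 gave -0.15 (interval -0.37 to 0.07, adjusted p = 0.335), or -0.05 without vehicle replicate 1. Groups did not overlap for CCL5 and CCL8, both lower with GW9662, where 12.7% of all probe sets were lower without overlap. The 3′ minus 5′ measure moved with the treatment too, at 0.853 to 1.04 on GW9662 arrays and 1.07 to 1.30 on vehicle arrays. With it as a covariate CXCL8 gave 0.05, and CXCL5 turned to -0.19 and CXCL3 to -0.70, none past the threshold. The measure did not overlap between the 2 groups, so that fit separates treatment from the measure poorly. Of all 24016 probe sets 0 passed in it. The 2 comparisons share the ovine vehicle arrays.

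Of the other chemokines, 20 genes were measured, by the brightest probe set of each gene. Between bovine controls and ovine vehicle cells 12 passed, 1 higher and 11 lower, where 49.2% of the brightest probe sets of all 9155 named genes passed, 21.9% higher and 27.4% lower. Of the 20 genes 14 averaged under 3 in both groups, CXCL10, CXCL11 and CCL20 among them. These include 7 of the 11 lower ones, with differences of only -0.03 to -0.09, and the median over the 20 genes was -0.06. None of those 7 passed with arrays centred on their medians or after a second quantile normalization. Under each of these scalings 5 of the 20 passed, 1 higher and 4 lower, where 35.3% and 37.1% of all named genes passed. CCL26, eotaxin-3, which attracts eosinophils in humans, read 9.27, 9.51, 9.37, 9.32 and 9.38 in bovine controls, against 13.10, 13.08, 12.94, 12.88 and 13.00 with vehicle. All its bovine arrays lay below all its ovine ones (difference -3.63, SE 0.055, adjusted p = 2.7e-10). CXCL12, the ligand of CXCR4, was lower in bovine controls by a log2 difference of -1.49 (7.01 against 8.50 with vehicle, adjusted p = 2.0e-06), and CCL25, a lymphocyte attractant of thymus and gut, by -1.15 (5.33 against 6.48, adjusted p = 9.5e-05). CCL14 was higher by 0.77 at low signal (3.38 against 2.61, adjusted p = 0.0184). With GW9662 none of the 20 passed (limma, 6 at an unadjusted p under 0.05), where 0.218% of the brightest probe sets did and 20.1% had an unadjusted p under 0.05.

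CXCR1, a receptor for CXCL8, read at the low end of the scale, averaging 2.07 with GW9662, 2.06 in bovine controls and 2.08 with vehicle. CXCR2 was not analysed here. Of 12 receptors and scavengers measured, 6 passed in the bovine comparison, 2 higher and 4 lower, which is near the background of 49.2%. Of the 12, 9 averaged under 3 in both groups, and 3 of the lower calls came from these, with differences of -0.03 to -0.07 that passed under neither other scaling. CXCR4 read 10.97, 11.15, 10.99, 10.96 and 11.06 in bovine controls, against 6.37, 6.75, 6.69, 6.45 and 6.40 with vehicle, with no overlap. It was higher in bovine cells by 4.49 (SE 0.083, adjusted p = 8.8e-10). ACKR3, a scavenging receptor for CXCL12, was lower by a log2 difference of -1.58 (9.90 against 11.49, adjusted p = 3.1e-09). ACKR4, which takes up CCL25 among other CC chemokines, was higher by 0.92 (8.02 against 7.09, adjusted p = 0.000241). CCR4 passed with a difference of -0.07 at 2.74 against 2.81. With GW9662 none of the 12 passed (limma, 1 at an unadjusted p under 0.05), against 0.218% and 20.1% of the brightest probe sets of all named genes.

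**Figure D4:**
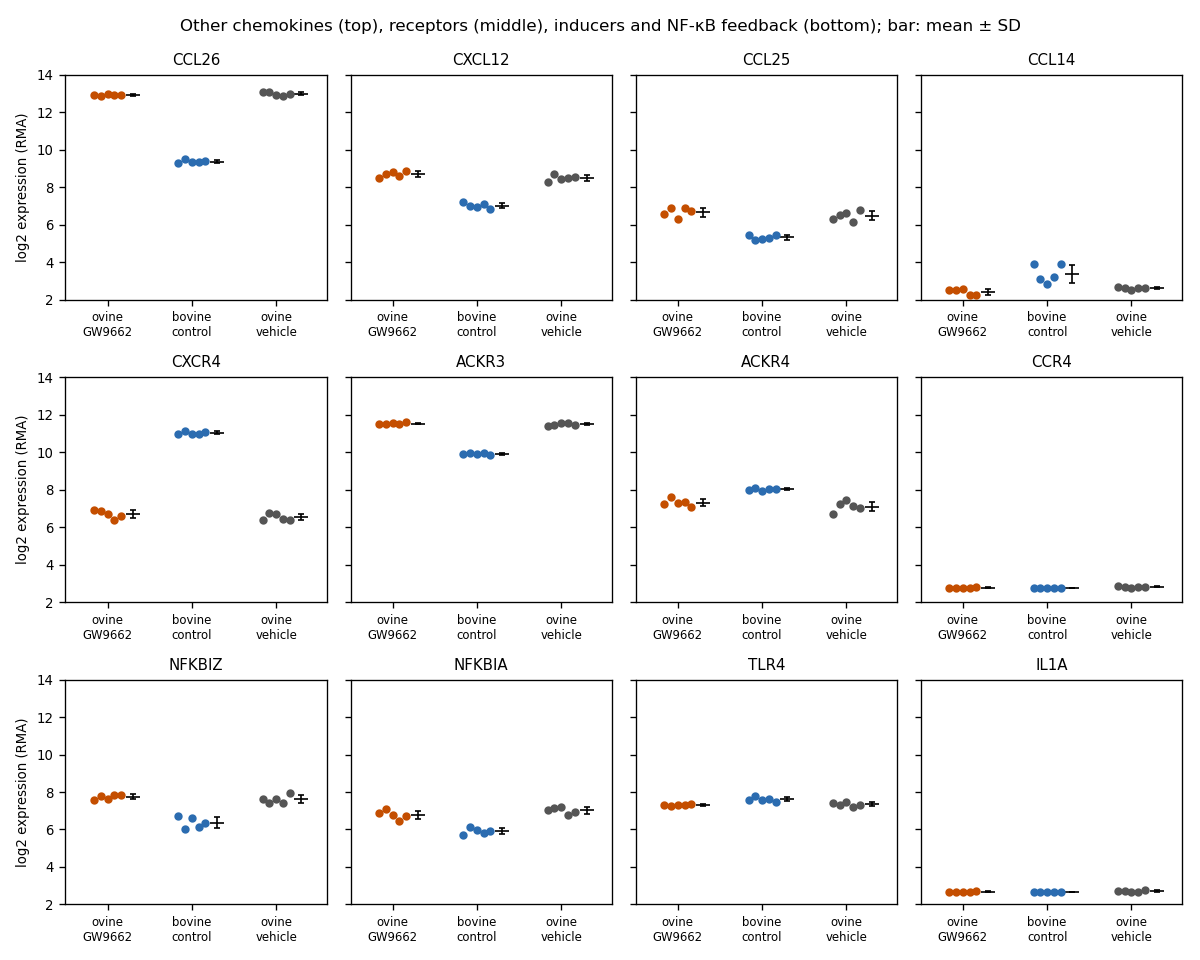
Log2 expression (vertical axis) by array of the genes named for the bovine comparison among other chemokines (top row), receptors (middle row) and inducers with NF-κB feedback genes (bottom row). Points are arrays and bars are mean ± SD, with ovine vehicle at the right of each panel. Among these genes CXCR4 has the largest bovine excess, 11.02 against 6.53 with vehicle, and CCL26 the largest deficit, 9.37 against 13.00.

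Among 20 inducers and NF-κB genes measured, 8 passed in the bovine comparison, 4 higher and 4 lower, which is near the background of 49.2%. Of the 4 lower calls 2, IL1A and TNF, averaged under 3 in both groups. Their differences of -0.06 and -0.03 passed under neither other scaling. With arrays centred on their medians 6 of the 20 passed, against 35.3% of all named genes. After a second quantile normalization 4 passed, against 37.1%. NFKBIZ, an inducible nuclear IκB protein, was lower in bovine controls by a log2 difference of -1.24 (6.37 against 7.61, adjusted p = 0.000271). Its other probe set averaged under 3 in both groups (2.67 against 2.73, difference -0.06), so the NFKBIZ signal rests on 1 probe set. NFKBIA, the IκBα inhibitor that NF-κB itself induces, was lower in bovine controls by -1.12 (5.91 against 7.02, adjusted p = 2.9e-05). TLR4, the endotoxin receptor, was slightly higher (0.28, 7.62 against 7.34, adjusted p = 0.0103), but not past the threshold after a second quantile normalization (0.22, adjusted p = 0.0734). The brightest probe sets of IL1A, IL1B, IL6 and TNF averaged under 3 in all 3 groups. With GW9662 none of the 20 passed (limma, 4 at an unadjusted p under 0.05), against 0.218% and 20.1% of the brightest probe sets. IL1R1 stood at 0.19 (5.33 against 5.14, adjusted p = 0.217) and CSF3 at -0.04 (2.64 against 2.68, adjusted p = 0.222).

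Of 9 leukocyte adhesion genes measured, 5 passed between bovine controls and ovine vehicle cells, 1 higher and 4 lower, where 49.2% of the brightest probe sets passed, 21.9% higher and 27.4% lower. The 4 lower ones were VCAM1, SELE, SELP and ICAM1, at differences of -6.97, -4.71, -3.94 and -3.79. VCAM1, the ligand of the integrin VLA-4, averaged 2.41 in bovine controls and 9.38 with vehicle, so that its difference is a lower bound in signal. With GW9662 none of the 9 passed (limma, 4 at an unadjusted p under 0.05), against 0.218% and 20.1% of the brightest probe sets. VCAM1 stood at -0.29 (9.09 against 9.38 with vehicle, adjusted p = 0.0627) and passed after a second quantile normalization, at -0.34 (adjusted p = 0.0255). ICAM1 stood at -0.21 (8.42 against 8.63, adjusted p = 0.217).

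Likeness of pattern was measured as the root mean square difference between profiles over the 15 arrays, each centred on its own mean and taken from the brightest probe set of each of 9147 other named genes. The genes nearest to CXCL8 were CCL26 (0.17 log2 units), VEGFC (0.20), KLF4 (0.20), PTPN13 (0.21) and BEND6 (0.23), against a median of 1.66 over all genes. VEGFC, a growth factor for lymphatic endothelium, averaged 10.66 with GW9662, 7.46 in bovine controls and 10.55 with vehicle. The genes nearest to CCL2 were FRMD8 (0.18), CNPY2 (0.18), PSMB8 (0.19), MRAS (0.20) and CYP27A1 (0.20), against a median of 0.50. PSMB8, a subunit of the immunoproteasome, averaged 7.95 with GW9662, 9.02 in bovine controls and 8.20 with vehicle. These distances rest mainly on the step between bovine and ovine arrays and are given as a description.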

How the data were processed

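The authors deposited log2 expression values of 24128 probe sets on 15 arrays, made with RMA according to the submitters' processing notes, with no version given there. RMA removes background, sets all arrays to 1 distribution by quantiles and combines the probes within each set, so arrays of both species were forced to a like distribution. Without the 112 control sets, 24016 were tested, of which 13292 had 1 gene symbol in the platform annotation of 2016. In each comparison only its own 10 arrays entered the linear model (lmFit, then eBayes, limma 3.58.1, R 4.3.3). P-values were adjusted by the Benjamini-Hochberg method over all 24016 with a threshold of 0.05. Depth does not apply to arrays, and the number of arrays limits precision. The fits were tested on simulated data.

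The members, gene lists and tests were chosen with earlier results of these data known. All members are reported. From each list, up to 4 genes past the threshold with the largest change and no overlap were named, or where none passed up to 2 with the smallest p. IL1B, IL6, TNF, CXCL10, CXCL11, CCL20, CXCR1, CD14, VWF, CLDN5, PTPRC, TAGLN, COL1A2, COL3A1, KRT5 and DPP4 were named after their values were seen. Alternatives covered centring, quantile normalization, dim probe sets, variance, weights, arrays fitted, a replicate block, 1 probe set per gene, a fold limit, a 3′ minus 5′ covariate and arrays left out.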

Additional observations from a re-analysis of the deposited data

Results flagged for a closer look

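Among 36 sets of 5 arrays (12 probe sets in 3 groups), 7 held an array whose gap to the nearest other array exceeded 0.71 of the set's range, where chance gives about 1 in 20. For GRO1, bovine replicate 3 read 3.19 on Bt.611.1.S1_x_at (nearest array 2.89), GW9662 replicate 4 read 10.28 on Bt.611.1.S2_at (nearest 10.04), and vehicle replicate 2 read 10.07 on Bt.611.1.S2_at (nearest 10.19). For CXCL3, vehicle replicate 3 read 4.50 (nearest 3.74) and bovine replicate 4 read 3.43 (nearest 3.56). CCL5 in GW9662 replicate 5 read 3.86 (nearest 4.04), and CCL8 in vehicle replicate 1 read 2.89 (nearest 2.45).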

How the results depend on the processing

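The count of chemokine probe sets past the threshold with GW9662 was 0 in all 19 alternatives run, while the count over all probe sets ran from 0 to 237 around the reported 44. In the bovine comparison the chemokine count was 8 in most alternatives and 8 to 9 when each array was left out. It was 6 when limma tested against a limit of 1 log2 unit. GRO1 on Bt.23093.1.S1_at (adjusted p = 0.0815) and CCL2 on Bt.2408.1.S1_s_at no longer passed there. With only the brightest probe set of each gene it was 5 of 8. In the reported fit 49.2% of the brightest probe sets of all named genes passed. The count over all probe sets ran from 557 with the limit of 1 log2 unit to 13336 with all 15 arrays fitted together, around the reported 10860. As a share of the probe sets tested it ran from 2.32% to 56.9% over all alternatives.

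Signs turned only for differences that passed neither in the reported fit nor in the alternative. With GW9662, GRO1 on Bt.611.1.S1_x_at gave -0.015 after a second quantile normalization and -0.016 to 0.091 with arrays left out, and CXCL5 gave -0.0027 with array weights. With the 3′ minus 5′ covariate CCL8 gave 0.13, CXCL3 -0.70, CXCL5 -0.19, and GRO1 -0.26 on Bt.611.1.S1_at and -0.15 on Bt.611.1.S1_x_at. The cause was not tested. In the bovine comparison CCL2 on Bt.2408.1.S1_at ran from -0.21 to 0.081 with arrays left out.

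With the replicate number as a replicate block, 0 chemokine probe sets passed with GW9662 and 8 in the bovine comparison (0 and 5396 over all probe sets). The labels share only numbers: deviations of same-numbered arrays correlated at -0.19 to 0.17 and at -0.10 to 0.09, and no array correlated best with its own number. Signal over background is not recorded, which limits CXCL3, CCL5, CCL8, bovine CXCL2 and bovine GRO1 on Bt.611.1.S1_at and Bt.611.1.S1_x_at.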

Other observations

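Chemokines are held at the endothelial surface by heparan sulfate, and genes of this display differed between bovine and ovine cells in both directions. Measured were 11 genes of display and of chemokine shedding or trimming. Of these 7 passed in the bovine comparison, 3 higher and 4 lower, where 49.2% of the brightest probe sets of all named genes passed. Of the proteases, ADAM10 did not pass (0.04, adjusted p = 0.581). DPP4, a chemokine-trimming protease, gave -0.16 at low signal (2.89 against 3.05, adjusted p = 0.0337). Under each of the other 2 scalings 6 passed, without DPP4. Of all named genes 35.3% passed with arrays centred on their medians and 37.1% after a second quantile normalization. SDC2, a syndecan that carries heparan sulfate, averaged 4.97 ± 0.30 in bovine controls and 7.62 ± 0.16 in ovine vehicle cells (log2 difference -2.65, SE 0.14, adjusted p = 1.1e-06). The glypican GPC1, another carrier, was higher in bovine cells by 1.08 (8.90 against 7.82, adjusted p = 1.3e-05). The chain-polymerising enzymes split, with EXT1 higher by 0.76 (9.15 against 8.39) and EXT2 at a difference of -0.71 (8.83 against 9.55). With GW9662 none of the 11 passed (limma, 3 at an unadjusted p under 0.05), against 0.218% and 20.1% of the brightest probe sets. SDC2 stood at 0.40 (8.02 against 7.62, adjusted p = 0.167, without overlap), or 0.096 on the other SDC2 probe set (7.55 against 7.45, adjusted p = 0.398). GPC1 stood at -0.35 (7.47 against 7.82, adjusted p = 0.217).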
